A study of Mus musculus with 12 samples.

Results

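The uroplakin genes were followed through peeled urothelium, the sheet of epithelial cells that lines the urinary tract, from Stag2-WT and Stag2-KO mice. They were chosen by symbol, as Upk1a, Upk1b, Upk2, Upk3a and Upk3b, and all 5 were found among the 23337 genes listed at both times. Stag2 encodes part of the cohesin ring, which folds chromatin into loops and keeps sister chromatids joined, and the study asked what changes in this tissue when it is lost. The 12 libraries fall into 4 groups of 3. Stag2-WT and Stag2-KO mice ate food containing TMX, taken to be tamoxifen, for 1 week, and tissue was collected either 1 week or 1 month from the first day of feeding. Both genotypes carry the TMX label, so no group was without it. The allele, the driver of the deletion, and the strain, age and sex of the animals are not given in the sources used here, and the p-values measure the spread between the 3 libraries of a group, which carry different library names.

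Uroplakins are membrane proteins of the umbrella cells, the outermost layer of the urothelium. They pack into rigid plaques that cover the apical surface and help to make it impermeable to urine. Upk1a and Upk1b are tetraspanins, which cross the membrane several times, and each has a partner with a single membrane span: Upk1a pairs with Upk2, and Upk1b with Upk3a or its relative Upk3b. Pairing helps most of these proteins to leave the endoplasmic reticulum. Transcripts of this family are widely used as markers of terminal urothelial differentiation, and Upk1b and Upk3b are also made by mesothelium, the lining of the body cavities.

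The genes lie on 5 chromosomes, and in GENCODE M21 none overlaps another gene on either strand. The build of that annotation, GRCm38, is the mm10 that the submitters' processing notes name. Upk1a lies at chr7:30603092-30612847 on the minus strand and has 8 exons. Upk1b lies at chr16:38773184-38800328 on the minus strand and has 8 exons. Upk2 lies at chr9:44452715-44454976 on the minus strand and has 5 exons. Upk3a lies at chr15:85017141-85022547 on the plus strand and has 6 exons. Upk3b lies at chr5:136038496-136046487 on the plus strand and has 6 exons. The libraries read the 3′ ends of polyadenylated transcripts, so the signal comes from the end of the last exon, and counts were not divided by length. The annotated 3′ untranslated region runs from 150 bases in Upk3a to 2393 bases in Upk3b.

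The upstream sequences of the related pair Upk3a and Upk3b are shown because these genes parted most widely in 1 library described below. RefSeq promoter entries were matched for 3 of the 5 genes, Upk1a, Upk3a and Upk3b. The 250 bases before the RefSeq start follow, 5′ to 3′ on the gene's strand (GRCm38.p6, chr15:85016891-85017140 for Upk3a and chr5:136038246-136038495 for Upk3b, both plus strand), with motif matches in capitals.
Upk3a: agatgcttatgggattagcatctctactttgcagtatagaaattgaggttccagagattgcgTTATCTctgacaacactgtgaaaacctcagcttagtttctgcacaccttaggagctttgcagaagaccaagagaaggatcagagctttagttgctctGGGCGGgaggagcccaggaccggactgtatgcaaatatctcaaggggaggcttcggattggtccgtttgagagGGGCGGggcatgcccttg
Upk3b: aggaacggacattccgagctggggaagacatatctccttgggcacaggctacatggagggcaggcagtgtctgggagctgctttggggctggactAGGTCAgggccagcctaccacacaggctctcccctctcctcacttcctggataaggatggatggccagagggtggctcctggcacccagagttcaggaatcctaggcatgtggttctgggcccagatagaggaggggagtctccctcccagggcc
Both strands were searched for 7 motifs, none of which lies inside another. The GATA motif was AGATAA, and Upk3a held it on the opposite strand, 188 bases before the start. The GC box was GGGCGG, which Upk3a held 91 and 18 bases before the start. A recognition site of nuclear receptors was written as AGGTCA, and Upk3b held it 155 bases before its start. Of 32851 promoter windows of the same length, 9.99% held the GATA motif, 32.7% the GC box and 14.0% the nuclear receptor site, so none of these matches is rare. The other motifs were found in neither window shown. For GRHL factors the letters were AACCGGTT, present in 0.116% of all windows. For FOXA factors they were TGTTTAC, present in 3.17%. The TATA box was searched as TATAAA, present in 12.4%. The CHR element, which the DREAM complex can bind, was searched as TTTGAA, present in 15.99%. In the window of Upk1a none of the 7 motifs was found. A match of letters is a description and not a bound site.

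Some facts of the whole series bear on the values. Total counts per library ran from 5580961 to 9497088. Levels are given as CPM (counts-per-million), with library totals scaled by TMM, edgeR's correction for composition. Mean Stag2 at 1 week was 129.9 CPM for WT against 66.96 CPM for KO, and at 1 month 55.1 against 31.8 CPM, with every KO library below every WT library of its time. The exons removed are not given in the sources used here, and 3′ reads outside them would not check the deletion. Xist had at least 6392 counts in all 3 KO libraries of 1 week and in KO replicate 3 of 1 month, and the 4 Y-linked genes examined summed to at most 4 counts there, while the other 8 libraries had at most 28 counts of Xist. At 1 week, and within the pair of replicate 3 at 1 month, genotype and sex can therefore not be told apart. By the batch label, the 1 week libraries are all in batch 1, while at 1 month replicates 1 and 2 of each genotype are in batch 2 and replicate 3 of each is in batch 3. Time and batch cannot be told apart either. KO replicate 3 of 1 week stands apart from the others: its rank correlation with the other KO libraries of that time was 0.836 and 0.796, against 0.967 to 0.986 among the WT libraries. The number in the title of WT replicate 3 of 1 month differs from its library name, through which its column was matched.

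All 5 uroplakin genes were detected in every library, with at least 43 counts. Their summed share of all counts at 1 week was 0.780%, 0.706% and 0.916% in WT and 0.925%, 0.482% and 0.713% in KO, for replicates 1 to 3 here and below. At 1 month they took 1.94%, 1.26% and 1.02% in WT and 1.04%, 0.929% and 0.825% in KO. The genotypes overlapped at both times, at 1 month by WT replicate 3 and KO replicate 1, which differ in batch. Within batches the KO libraries were lower at 1 month. A 3′ library gives about the same reads per transcript whatever its length, so shares can be set side by side. Most of these counts belonged to Upk1a, with a group mean between 43.8% and 56.8% of the uroplakin counts, and to Upk3a, with 19.6% to 30.6%. Upk3b made up 1.08% and 1.62% in WT and KO at 1 week and 0.137% and 0.127% at 1 month.

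**Figure D1:**
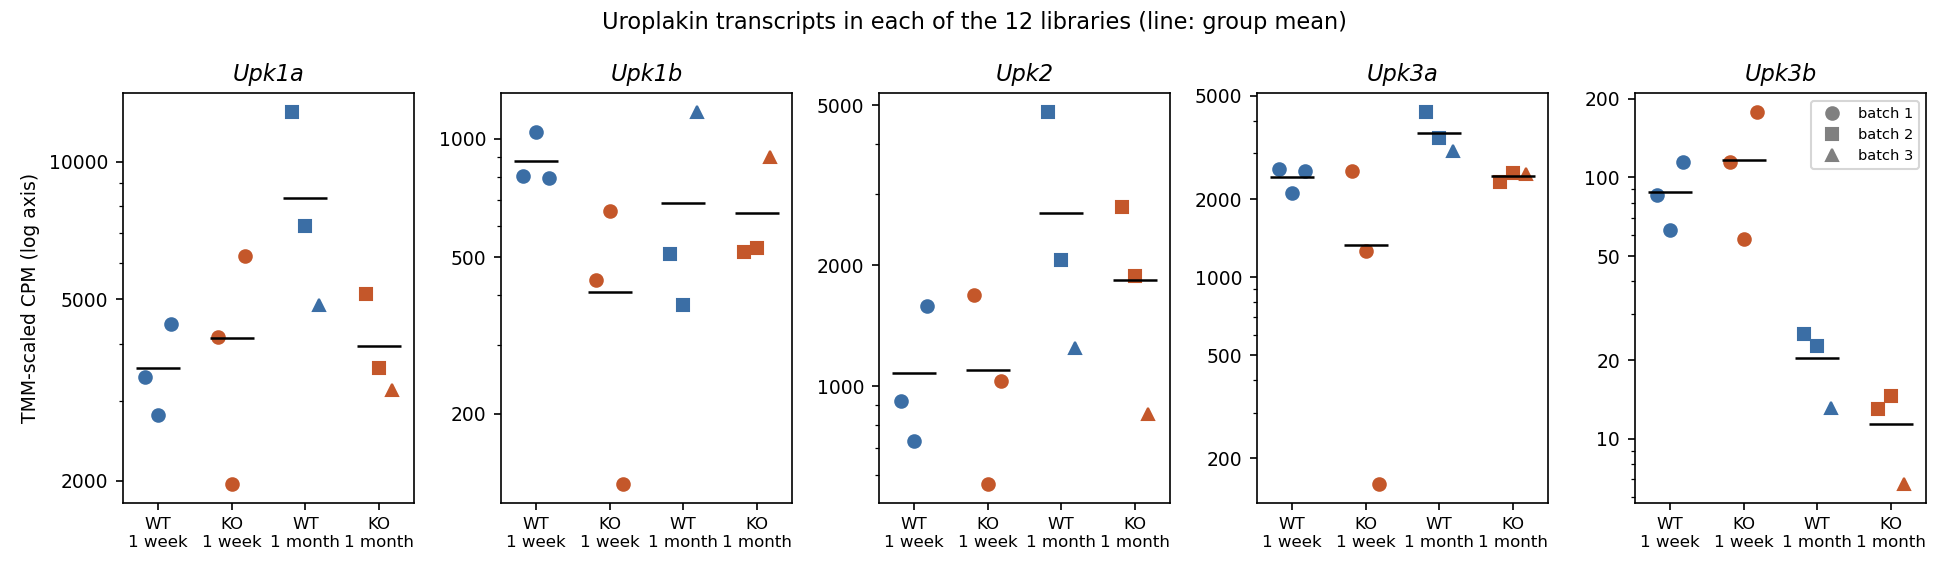
TMM-scaled counts-per-million (CPM, log axis) of each uroplakin gene in each library, by genotype and time after the start of TMX. Points are libraries, shapes are batches as labelled and lines are group means. Upk3a of the KO group at 1 week ranges from 159 to 2569 CPM, and the Upk3b libraries of 1 week all lie above those of 1 month.

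Upk1a, the tetraspanin that pairs with Upk2, had the highest CPM of the family in every library. At 1 week it stood at 3381, 2789 and 4413 CPM in WT and at 4129, 1968 and 6223 CPM in KO. The KO libraries spanned the whole range of the WT libraries, with replicate 2 below and replicate 3 above all of them. The 1 month values were 12848, 7233 and 4859.5 CPM in WT and 5144, 3537 and 3162 CPM in KO. WT replicates 1 and 2 were above every KO library, and WT replicate 3 was below KO replicate 1. The log2 fold change of KO over WT was 0.30 (SE 0.46, edgeR adjusted p 0.768) at 1 week and -1.06 (SE 0.32, edgeR adjusted p 0.0902) at 1 month. The latter corresponds to a level 2.08-fold lower in KO and did not pass the threshold of 0.05.

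Upk2, its partner, showed a similar spread. It had 918, 728 and 1579.9 CPM in WT and 1686, 570.04 and 1029 CPM in KO at 1 week. Values of 1 month were 4811, 2058 and 1242 CPM in WT and 2794, 1878 and 854 CPM in KO. The genotypes overlapped at both times, and at 1 month the batch 3 library was the lowest of each genotype. KO over WT differed on the log2 scale by 0.09 (SE 0.47, edgeR adjusted p 0.937) at 1 week and -0.59 (SE 0.32, edgeR adjusted p 0.300) at 1 month. The value of 1 month was -0.19 without WT replicate 1 and -0.87 without WT replicate 2.

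Upk1b, the other tetraspanin, was the member whose KO libraries all lay below the WT libraries at 1 week. It had 803, 1042 and 796 CPM in WT and 437, 655 and 133 CPM in KO, with 655 CPM as the highest KO value and 796 CPM as the lowest WT value. Such a lack of overlap with KO lower was seen for 14.1% of the 12754 genes tested at 1 week, so it does not set Upk1b apart. Its fitted log2 fold change was -1.06 (SE 0.54, edgeR adjusted p 0.388) and did not pass the threshold, and it ran from -0.69 without KO replicate 3 (edgeR adjusted p 0.221) to -1.63 without KO replicate 2 (edgeR adjusted p 0.186). At 1 month the values were 509, 379 and 1168 CPM in WT and 515, 527 and 897 CPM in KO. In both genotypes the library of batch 3 was the highest, the reverse of Upk2. Its log2 fold change there was -0.02 (SE 0.23, edgeR adjusted p 0.971), with 0.24 within batch 2 and -0.38 within batch 3.

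Upk3a, the partner of Upk1b in the plaque, was steady in WT at 1 week, with 2618, 2108 and 2562 CPM. The KO libraries had 2569, 1262 and 159 CPM. KO replicate 1 lay within the range of WT, replicate 2 lay below it, and replicate 3 was 7.93-fold below the lowest of the other 5 libraries of 1 week. The log2 fold change of -0.83 had an SE of 0.79 (edgeR adjusted p 0.624), and it ran from -0.36 without KO replicate 3 (edgeR adjusted p 0.546) to -1.72 without KO replicate 1 (edgeR adjusted p 0.341). At 1 month Upk3a had 4329, 3438 and 3061 CPM in WT and 2330.0, 2512 and 2498 CPM in KO. It was the member whose genotypes did not overlap at that time, with each KO library below each WT library. KO lower without overlap was seen for 6.45% of the 12139 genes tested at 1 month. The log2 fold change was -0.60 (SE 0.25, edgeR adjusted p 0.200), a level 1.51-fold lower in KO that did not pass the threshold.

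Upk3b, the relative of Upk3a, had the lowest mean level of the family in each group. In KO replicate 3 of 1 week it had 923 counts, more than Upk3a (826) and Upk1b (689). At 1 week it had 85.4, 62.95 and 114.6 CPM in WT and 114.3, 58.4 and 178 CPM in KO. The genotypes overlapped, and the log2 fold change was 0.49 (SE 0.45, edgeR adjusted p 0.610). Values at 1 month were 25.2, 22.7 and 13.1 CPM in WT and 12.97, 14.5 and 6.71 CPM in KO. WT replicate 3 lay below KO replicate 2, which is of another batch, and no other pair overlapped. The log2 fold change was -0.90 (SE 0.25, edgeR adjusted p 0.0757), a level 1.86-fold lower in KO that did not pass. Counts behind the values of 1 month ran from 43 to 130, where those of 1 week ran from 541 to 1053.

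Over the family, 0 of 5 genes passed the threshold at 1 week, where 0.0627% of all genes tested passed, and 0 of 5 had an unadjusted p under 0.05, against 15.5% of all genes. DESeq2, run as an alternative, also called 0 of them, against 6.51% of its genes. At 1 month 0 of 5 passed, where 2.22% of all genes did. Upk1a, Upk3a and Upk3b had unadjusted edgeR p-values of 0.00521, 0.0351 and 0.00315, so 3 of 5 were under 0.05 and lower in KO, against 10.3% of all genes tested. These 3 genes share their libraries and are not separate observations. Their log2 CPM at 1 month, genotype difference included, had a Pearson r of 0.77 to 0.89 with each other. DESeq2 called 1 of the 5 at 1 month, Upk1a, with an adjusted p of 0.00388, where it called 2.89% of its genes as lower in KO. The median log2 fold change of the 5 genes was 0.09 at 1 week and -0.60 at 1 month, beside 0.02 and -0.01 over all genes tested. In bulk tissue, fewer umbrella cells and less of each transcript per cell cannot be told apart.

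**Figure D2:**
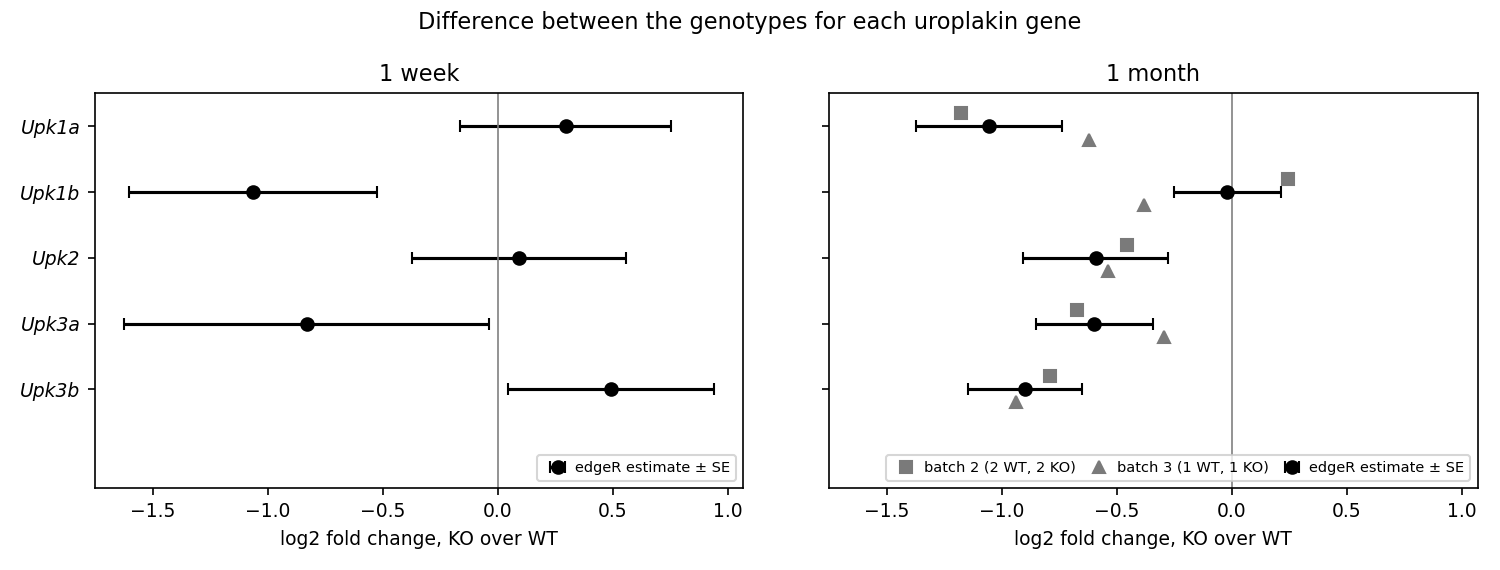
Log2 fold change of KO over WT for each uroplakin gene at 1 week and 1 month. Black points are edgeR estimates with their standard error, and grey squares and triangles are log2 CPM differences within batches 2 and 3. At 1 month the estimates of Upk1a, Upk2, Upk3a and Upk3b lie between -1.06 and -0.59 with both batches on the same side of 0, and Upk1b lies at -0.02.

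Batch was a covariate of the fit at 1 month because it is crossed with genotype. Within batch 2, with 2 libraries per genotype, the log2 CPM of KO minus WT was -1.18 for Upk1a, -0.46 for Upk2, -0.67 for Upk3a and -0.79 for Upk3b. Within batch 3, with 1 library per genotype, it was -0.62, -0.54, -0.29 and -0.94 for the same genes. These 4 genes had lower values in KO in both batches, while Upk1b differed in sign between them. In batch 3 the KO library has 7764 counts of Xist and 0 Y-linked counts and the WT library 11 and 945, so genotype and sex cannot be told apart there. Upk1a is the gene whose call turned on the setting. Besides DESeq2, it passed without a filter on low counts (-1.01, edgeR adjusted p 0.0173). It also passed with batch 2 alone, at -1.25 (edgeR adjusted p 0.0485), and, at a like value, when WT replicate 3 or KO replicate 3 was left out, which leaves batch 3 with a single library that adds nothing to the comparison. Without the batch term the log2 fold change of Upk1a was -1.12 with an edgeR adjusted p of 0.596. Leaving out WT replicate 1, the library with the highest Upk1a, gave -0.74 (edgeR adjusted p 0.351). KO replicate 3 is also the KO library of 1 month with Xist, so batch 2 alone compares libraries with at most 28 counts of Xist.

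**Figure D3:**
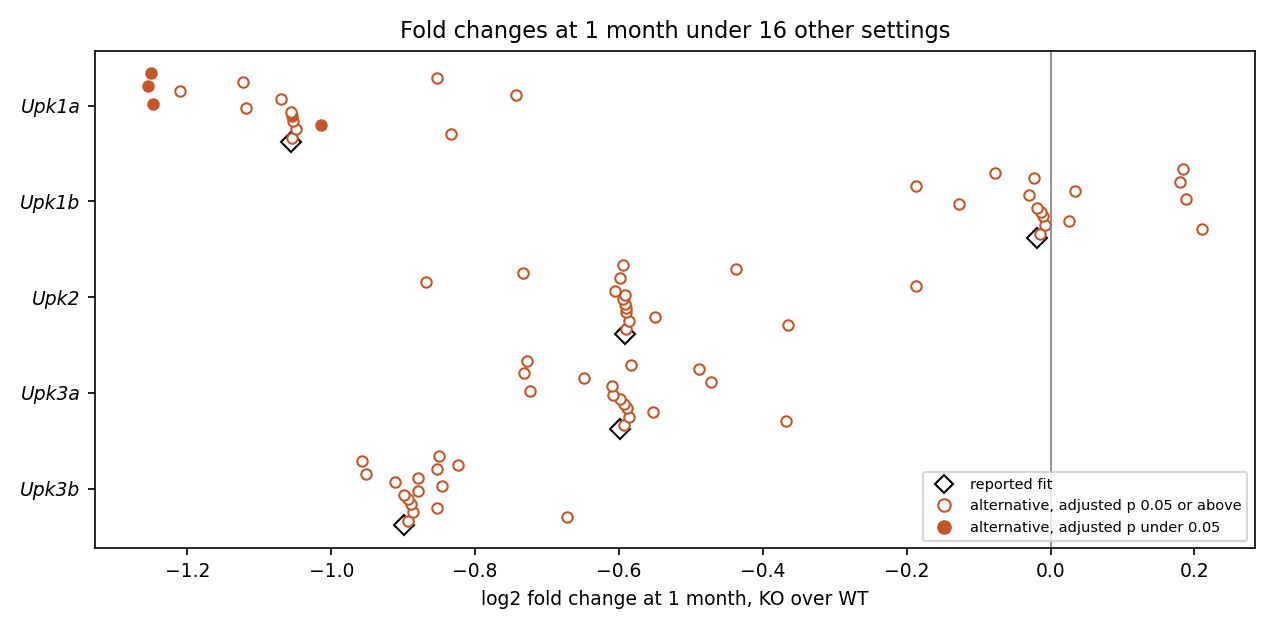
Log2 fold change of KO over WT at 1 month for each uroplakin gene in the reported fit (diamonds) and under 16 other settings (circles, filled where the adjusted p is under 0.05). Upk1a lies between -1.26 and -0.74 and is filled under 5 settings, no other gene is filled, and the circles of Upk1b lie on both sides of 0.

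Whether the genotype difference changed between the times was tested as an interaction over all 12 libraries. The difference at 1 month minus that at 1 week was -1.34 (SE 0.60, edgeR adjusted p 0.243) for Upk1a and -1.38 (SE 0.52, edgeR adjusted p 0.193) for Upk3b. It was 1.05 (SE 0.63) for Upk1b, -0.67 (SE 0.62) for Upk2 and 0.25 (SE 0.90) for Upk3a, with edgeR adjusted p from 0.351 to 0.890. Of all 13122 genes 0 passed this test, so none of the 5 did. The unadjusted p was under 0.05 for 2 of 5, Upk1a and Upk3b, against 19.9% of all genes, and DESeq2 called 0 of 5, against 6.15% of its genes. In simulated counts of this design, 0 of 200 genes with a 4-fold difference in KO at 1 month were recovered, so this test had little chance of calling differences of that size.

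The order of the 4 groups differed from gene to gene. Mean Upk1a was highest in WT at 1 month (8313 ± 4103 CPM, SD, n = 3), followed by KO at 1 week (4107 ± 2128), KO at 1 month (3948 ± 1053) and WT at 1 week (3528 ± 822), and each neighbouring pair in this order overlapped. Mean Upk2 ran from 2704 ± 1870 CPM (SD, n = 3) in WT at 1 month through 1842 ± 971 in KO at 1 month and 1095 ± 561 in KO at 1 week to 1075 ± 447 in WT at 1 week, again with overlap between all neighbours. Mean Upk1b was 880.0 ± 140.1 CPM (SD, n = 3) in WT at 1 week, 686 ± 423 in WT at 1 month, 646 ± 217 in KO at 1 month and 409 ± 263 in KO at 1 week, and all neighbours overlapped. Upk3a was 3609 ± 651 CPM (SD, n = 3) in WT at 1 month, above all libraries of KO at 1 month (2447 ± 101), which overlapped WT at 1 week (2429 ± 279), and that group overlapped KO at 1 week (1330.2 ± 1207). The KO group of 1 month was the tightest for Upk3a, with a coefficient of variation of 4.14%, and the KO group of 1 week the widest, at 90.7%.

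Upk3b had a different order, with both groups of 1 week above both groups of 1 month. Its means were 117 ± 59.7 CPM in KO and 87.7 ± 25.9 in WT at 1 week, and 20.4 ± 6.40 in WT and 11.4 ± 4.14 in KO at 1 month (SD, n = 3 each). The lowest library of 1 week had 58.4 CPM and the highest of 1 month 25.2 CPM. This gap was not tested, since time and batch cannot be told apart.

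The plaque partners were then compared as ratios of counts within a library, which do not depend on scaling. The log2 ratio of Upk1a to Upk2 was 1.88, 1.94 and 1.48 in WT and 1.29, 1.79 and 2.60 in KO at 1 week. At 1 month it was 1.42, 1.81 and 1.97 in WT and 0.88, 0.91 and 1.89 in KO. The KO libraries of batch 2 were the lowest of all 12, and the batch 3 libraries of both genotypes lay close together. KO minus WT at 1 month was -0.51 (two-sided exact permutation p 0.3), with -0.72 within batch 2 and -0.08 within batch 3, and it ran from -0.84 without KO replicate 3 to -0.33 without KO replicate 1. With 3 libraries against 3 such a test cannot give a p under 0.1. At 1 month it also shuffled libraries without regard to batch, so gaps between the batches enter its p-values.

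The log2 ratio of Upk1b to Upk3a was -1.71, -1.02 and -1.69 in WT and -2.55, -0.95 and -0.26 in KO at 1 week. At 1 month it was -3.09, -3.18 and -1.39 in WT and -2.18, -2.25 and -1.48 in KO. Here too the batches stood apart, with batch 3 the highest in each genotype. KO minus WT was 0.22 at 1 week (exact permutation p 0.9) and 0.58 at 1 month (exact permutation p 0.4), with 0.92 in batch 2 and -0.09 in batch 3. The value of 1 month ran from 0.27 without WT replicate 2 to 1.16 without WT replicate 3.

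Between the related tetraspanins, the log2 ratio of Upk1b to Upk1a averaged -1.99 ± 0.53 in WT and -3.46 ± 1.99 in KO at 1 week (SD, n = 3, exact permutation p 0.3). At 1 month it averaged -3.66 ± 1.40 in WT and -2.63 ± 0.76 in KO (SD, n = 3, exact permutation p 0.3). KO minus WT was -1.47 at 1 week, and -0.42 without KO replicate 3. It was 1.03 at 1 month, with 1.42 within batch 2 and 0.24 within batch 3, and ran from 0.53 without WT replicate 1 to 1.83 without WT replicate 3. Between the related single-span genes, the log2 ratio of Upk3b to Upk3a was -4.94, -5.07 and -4.48 in WT and -4.49, -4.43 and 0.16 in KO at 1 week. KO minus WT was 1.91 (exact permutation p 0.2), and 0.37 without KO replicate 3. In that library Upk3b had more counts than Upk3a, while in the other 11 libraries Upk3a had more. At 1 month the ratio averaged -7.51 ± 0.32 in WT and -7.82 ± 0.62 in KO (SD, n = 3, exact permutation p 0.5). All 18 tests on ratios, including those to epithelial genes, had a Benjamini-Hochberg adjusted exact p of at least 0.675.

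**Figure D4:**
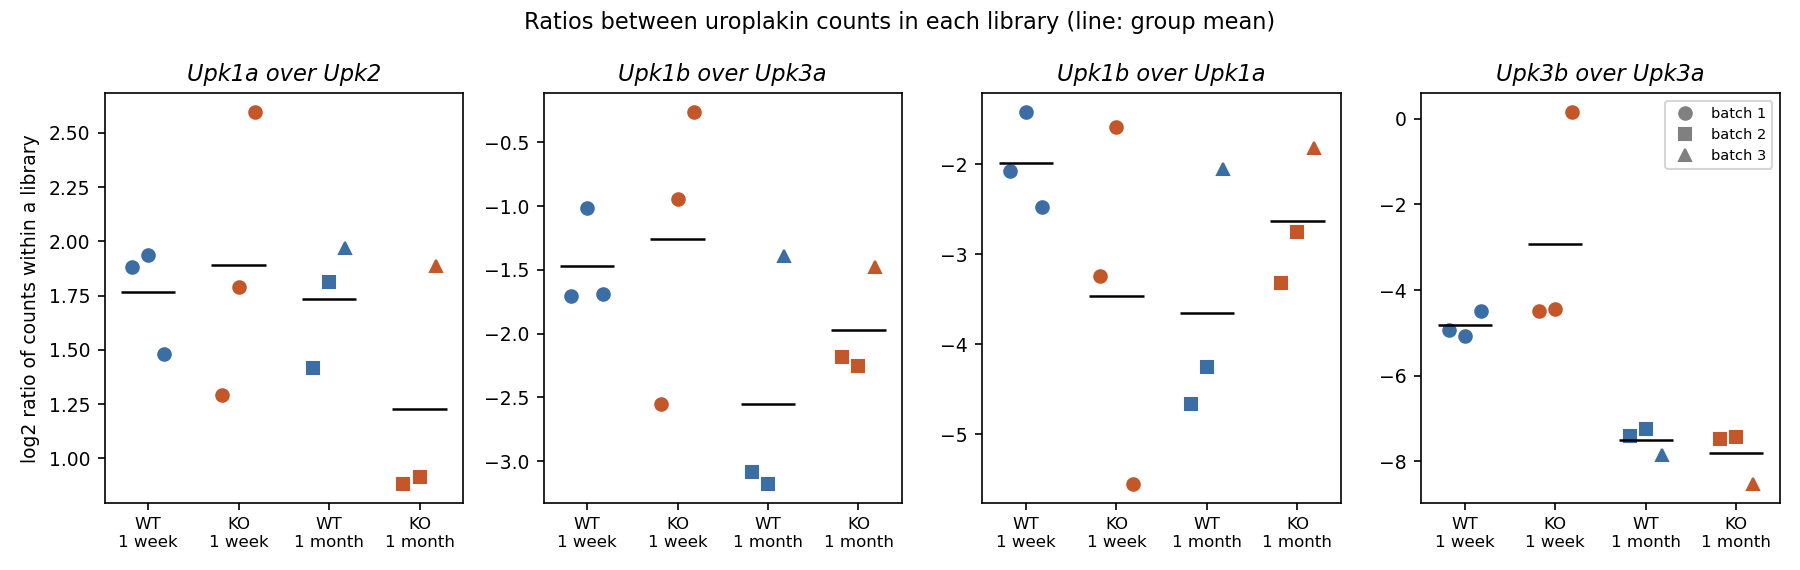
Log2 ratios of counts between uroplakin genes within each library, by genotype and time, with shapes for batches and lines for group means. KO replicate 3 of 1 week lies at 0.16 for Upk3b over Upk3a, and at 1 month the batch 3 libraries lie above those of batch 2 for Upk1b over Upk3a and Upk1b over Upk1a.

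The members were also set against 5 genes of epithelial cells (Cdh1, Epcam, Krt8, Krt18 and Krt19), which relates them to epithelium in place of all RNA. The log2 ratio of Upk1b to their sum averaged -2.15 ± 0.31 in WT and -3.37 ± 0.82 in KO at 1 week (SD, n = 3), without overlap (exact permutation p 0.1, the smallest possible). At 1 month the ratio of Upk1a averaged 0.89 ± 0.60 in WT and 0.11 ± 0.16 in KO, and that of Upk3b -7.73 ± 0.48 in WT and -8.37 ± 0.44 in KO (SD, n = 3, exact permutation p 0.2 for each). The ratio of Upk3a averaged -0.22 ± 0.17 in WT and -0.55 ± 0.29 in KO (SD, n = 3, exact permutation p 0.2), and within batches it differed by -0.56 and 0.12. On this scale the genotypes overlapped for Upk3a at 1 month. Krt18, part of the reference, itself had a log2 fold change of -0.73 at that time, and the choice of reference moved the values. Epcam and Cdh1 went the other way, at 0.75 (edgeR adjusted p 0.0974) and 0.35 (edgeR adjusted p 0.427). Of the 5 genes, 2 were lower and 3 higher in KO at 1 month. Against Cdh1 and Epcam alone, KO minus WT at 1 month was -1.44 for Upk1a, -0.93 for Upk2, -0.99 for Upk3a and -1.30 for Upk3b, where the 5-gene reference gave -0.78, -0.27, -0.33 and -0.64. Upk1b at 1 month went from 0.25 to -0.41. Its difference at 1 week was -1.22 with the 5 genes and -0.75 without KO replicate 3.

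The library that stands apart at 1 week split the family. In KO replicate 3, Upk1a was 1.41-fold and Upk3b 1.55-fold above the highest of the other 5 libraries, while Upk1b was 3.30-fold and Upk3a 7.93-fold below the lowest. Upk2 lay within their range. Of the 12754 genes tested, 5.07% were at least as far below the others in this library as Upk3a, 12.2% as Upk1b, and 16.003% were at least as far above as Upk3b. It was the lowest of the 6 libraries for 40.8% and the highest for 31.9% of genes, so departures of this kind were common in it.

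The genes varied together in some pairs. Deviations of log2 CPM from the mean of each time had a Pearson r over the 12 libraries of 0.90 for Upk1a and Upk3b, 0.79 for Upk1a and Upk2, and 0.76 for Upk2 and Upk3b. Without KO replicate 3 of 1 week these were 0.88, 0.86 and 0.86. Upk3a changed sides with that library: its r with Upk1a was -0.14 with it and 0.85 without it, and its r with Upk1b was 0.73 with it and -0.14 without it. Upk1b had a negative r with Upk1a, Upk2 and Upk3b, of -0.55, -0.37 and -0.71, and of -0.40, -0.61 and -0.60 without that library. The points share libraries, batches and depth, and the values describe these libraries only.

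**Figure D5:**
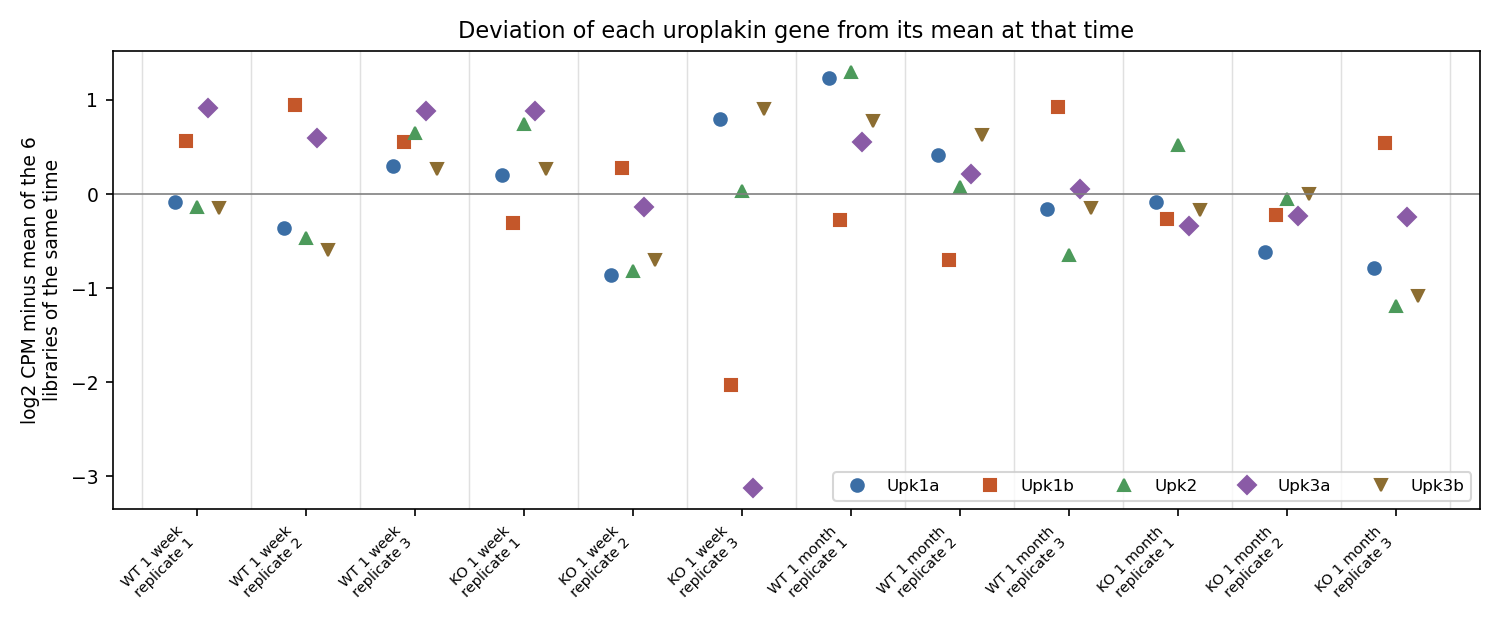
Log2 CPM of each uroplakin gene minus the mean of the 6 libraries of the same time, for each of the 12 libraries. In KO replicate 3 of 1 week Upk3a and Upk1b lie far below the other genes, and in both batch 3 libraries of 1 month, replicate 3 of each genotype, Upk1b lies above them.

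The genes whose deviations were most like those of a member were sought among all genes with a mean of at least 20 CPM. Over the 12 libraries these were Isoc2a, Pdk2 and Zxdc for Upk1a (r = 0.98, 0.97 and 0.96), and Commd7, Ssbp3 and Ndufb3 for Upk1b (r = 0.98 for each). They were Ap1m2, Ypel3 and 1810008A18Rik for Upk2 (r = 0.95, 0.94 and 0.94), Pon3, 2810432L12Rik and Arfrp1 for Upk3a (r = 0.99, 0.99 and 0.98), and Dstn, Hipk2 and Mpp6 for Upk3b (r = 0.96, 0.96 and 0.95). No member was among the 3 most alike of another. Without KO replicate 3 of 1 week, Isoc2a and Pdk2 stayed among the first 3 for Upk1a and Hipk2 for Upk3b, and the first 3 of the other members were all different genes.

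Genes that act with the uroplakins were read from lists. Of 12 genes of plaque partners and vesicle transport, 11 were tested at each time and 0 passed at either. Rab27b, a small GTPase that brings fusiform vesicles to the apical membrane, had a mean of 340 CPM in WT and 214 in KO at 1 week and of 145 and 113 at 1 month. Snx31, a sorting nexin of uroplakin turnover, had 300.2 CPM in WT and 169 in KO at 1 week and 107 and 128 at 1 month. Mal, a lipid raft protein of apical transport, had 971 and 1432 CPM at 1 week and 555 and 534 at 1 month, and Vamp8, a SNARE of vesicle fusion, 144 and 210 CPM at 1 week and 178 and 143 at 1 month. The median log2 fold change of the list was -0.08 at 1 week and -0.26 at 1 month. Vamp7 was listed at 0 in every library.

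Of the 8 luminal keratins and surface genes, 0 passed at 1 week and, against 2.22% of all genes tested, 1 passed at 1 month. This was Krt20, the keratin of mature umbrella cells, which fell from 201 ± 77.1 to 61.2 ± 14.8 CPM (SD, n = 3; log2 fold change -1.76, SE 0.25, edgeR adjusted p 0.00601). The log2 difference of Krt20 was -1.66 within batch 2 and -1.70 within batch 3. Krt18, a simple-epithelial keratin, went from 2184 to 1366 CPM in the means (log2 fold change -0.73, edgeR adjusted p 0.120), and Psca, a surface protein, from 2700.3 to 1876 CPM (-0.61, edgeR adjusted p 0.222), and neither passed. The log2 fold changes of Krt7 and Krt8 were -0.40 and -0.28. The list had 6 of 8 values below 0 at 1 month, with a median of -0.51. The 2 values above 0 were those of Gsdmc (1.198, edgeR adjusted p 0.227) and Krt19 (0.467, edgeR adjusted p 0.363), and neither passed.

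Regulators of urothelial differentiation were tested as 14 genes, of which 0 passed at either time. Gata3, a zinc-finger factor of luminal epithelia, had 985 CPM in WT and 695 in KO at 1 week and 1145 and 908 at 1 month. Klf5, a zinc-finger factor of epithelia, had 850 and 485 CPM at 1 week and 657 and 776 at 1 month, and Ehf, an ETS factor of epithelia, 502 and 510 CPM at 1 week and 148 and 112 at 1 month. Klf4, a factor of epithelial barriers, had the smallest adjusted p of the list at 1 month, with 419 CPM in WT and 232 in KO (log2 fold change -0.90, edgeR adjusted p 0.0620). At 1 week it went the other way, with 283 CPM in WT and 668 ± 532 in KO (SD, n = 3; log2 fold change 1.32, edgeR adjusted p 0.320). The median log2 fold change of the list was -0.26 at 1 week and -0.17 at 1 month.

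The tetraspanin family, to which Upk1a and Upk1b belong, was read through 30 other genes. At 1 week 25 were tested and 0 passed. At 1 month 24 were tested and 4 passed, 2 in each direction, where 2.22% of all genes tested passed. Tspan3 rose from 33.0 to 70.0 CPM (log2 fold change 1.23, SE 0.26, edgeR adjusted p 0.0316) and Tspan18 from 4.46 to 14.9 CPM (1.53, SE 0.35, edgeR adjusted p 0.0435). Tspan4 fell from 87.0 to 42.8 CPM (-1.01, SE 0.22, edgeR adjusted p 0.0334) and Tspan6 from 62.0 to 31.2 CPM (-1.002, SE 0.22, edgeR adjusted p 0.0351). Cd63, a tetraspanin of late endosomes, had the highest mean of the list, with a log2 fold change of 0.28 at 1 month (edgeR adjusted p 0.515). The gene listed as 2310043J07Rik, which RefSeq names Upk3bl, averaged 8.47 CPM (WT) and 17.3 CPM (KO) at 1 week and 8.35 and 11.9 CPM at 1 month, and passed at neither time.

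Markers of other cells were measured beside these genes. Of 8 mesothelial markers 7 were in the tables, and their summed level was between 1.08 and 6.65 CPM in every library, with Calb2 and Wt1 at or near 0 throughout. Gpm6a had the highest mean of these markers, at 2.37 CPM over all libraries. In the same libraries Upk1b was at 133 CPM or more. Upk3b was at 58.4 to 178 CPM at 1 week and at 6.71 to 25.2 CPM at 1 month. Its lowest value was in KO at 1 month, where the highest mesothelial sum was 4.41 CPM. The sum of 6.65 CPM was in WT at 1 month, where Upk3b was at 13.1 CPM or more. The part of mesothelial RNA in Upk3b was not tested. The sum of 20 stromal and immune markers was 4159 to 6163 CPM in WT and 5958 to 11540 CPM in KO at 1 week, and 11237 to 14521 CPM in WT and 8865 to 10278 CPM in KO at 1 month. Its part in the uroplakin values was not tested. Of these markers 19 were tested at each time, and 0 passed at 1 week and 4 at 1 month, against 2.22% of all genes at 1 month. Pdgfrb rose from 13.4 to 32.6 CPM (log2 fold change 1.30, edgeR adjusted p 0.0218). Cd74 fell by 1.76, C1qa by 1.95 and C1qb by 1.38 on the log2 scale (edgeR adjusted p 0.00344, 0.0121 and 0.0302). The sum of 11 basal and intermediate markers was 4225 to 5263 CPM in WT and 3268 to 7784 CPM in KO at 1 week. It was 2788 to 4313 CPM in WT and 4308 to 6806 CPM in KO at 1 month, and of its genes 0 passed at either time. Krt5, the basal keratin, came closest at 1 month, from 272 to 644 CPM (log2 fold change 1.44, SE 0.34, edgeR adjusted p 0.0505). Its log2 difference was 2.06 within batch 2 and 0.46 within batch 3. Of the 7 genes tested at 1 month, 4 were higher and 3 lower in KO, with a median log2 fold change of 0.20. Krt15 had the highest mean of the list, with 2918 CPM in WT and 4465 in KO at 1 month. By these means it made up most of the sum at that time. The 3 lower genes were Col17a1 (-1.21, edgeR adjusted p 0.174), Itgb4 (-0.31, edgeR adjusted p 0.387) and Itga6 (-0.28, edgeR adjusted p 0.491). The sum of 6 markers of dividing cells was 14.0 to 16.1 CPM in WT and 94.8 to 583 CPM in KO at 1 week, and 9.15 to 50.8 CPM in WT and 10.5 to 15.6 CPM in KO at 1 month. Whether dividing cells bear on the uroplakin values of 1 week was not tested.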

How the data were processed

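A 3′-end kit (QuantSeq, forward) was used on RNA of each sample, with reads in the sense direction, per the labels. The deposited counts are raw whole numbers per gene symbol, in 1 table for each time, and per the labels HTSeq is to be run with strand on such libraries. Bowtie, TopHat, HTSeq, DESeq2 and mm10 are listed in the submitters' processing notes without roles or versions. The annotation is not given in the sources used here. No pair of replicates agreed within sampling noise.

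Each time was fitted alone over all genes with edgeR 4.0.16 (R 4.3.3): quasi-likelihood test, TMM, robust dispersions, the default filter on low counts by group, two-sided, Benjamini-Hochberg adjustment and a threshold of 0.05. Batch was a covariate of the fits at 1 month and in the interaction, and the exact permutation tests did not account for it. The SE is the absolute log2 fold change over the square root of F. Log2 CPM used a prior count of 2. Replicates were numbered in accession order and pair no mice. Alternatives included DESeq2 1.42.0, other scaling and filters, and leaving out each library. On simulated data with 200 genes changed 4-fold, 37 were recovered at 1 week with 0 false calls and 194 at 1 month with 16. The simulated counts held no shift between batches and no smaller changes. They therefore do not show how often differences of the size seen in the members would be called. Total counts were 5580961 to 9497088 per library, and the fewest counts of a member were 43, for Upk3b.

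The members and gene lists were chosen with earlier results of these data known. Named beside the members are Stag2, Xist, listed genes that passed, up to 4 further ones of a list by mean CPM, and the 3 most similar genes per member. Vamp7, Calb2, Wt1, Gsdmc, Col17a1 and 2310043J07Rik were named, and Krt19, Epcam and Cdh1 given values, after the values were seen.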

Additional observations from a re-analysis of the deposited data

How the results depend on the processing

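No paired analysis was possible because the labels carry no replicate numbers shared by the groups. The count of uroplakin genes called stayed at 0 under every alternative at 1 week and in the interaction. At 1 month it was 0 in the reported fit and 1, Upk1a, without a filter on low counts (adjusted p 0.0173), with DESeq2 and with batch 2 alone, and it ranged from 0 to 1 when single libraries were left out. Its adjusted p ran from 0.00388 to 0.596 over 16 alternatives, with the same sign in all of them. All genes called at 1 week numbered 8, against 62 without a filter, 898 with DESeq2, 553 in 1 fit of all 12 libraries and 0 to 320 without single libraries, with 320 without KO replicate 3. At 1 month they numbered 269, against 561 scaled by library size, 1276 without a filter, 743 with DESeq2, 1474 in batch 2 alone, 0 without the batch term (919 with an unadjusted p under 0.05), 0 in 1 fit of all 12 libraries (1180 unadjusted) and 45 to 1522 without single libraries. Library size moved the median log2 fold change of all genes at 1 month from -0.01 to 0.22 and the calls from 121 higher and 148 lower to 456 and 105, and Upk1b then stood at 0.21. In the interaction 0 genes were called, against 137 without a filter, 856 with DESeq2 and 0 to 440 without single libraries. Upk1b at 1 month was 0.026 without a filter and 0.19 in batch 2 alone, and ran from -0.19 to 0.18 without single libraries. At 1 week, leaving out single libraries moved Upk1a between -0.23 and 0.60, Upk2 between -0.35 and 0.39, and Upk3b between -0.037 and 0.79, with the lowest value of Upk1a and Upk3b when KO replicate 3 was left out, and Upk3a in the interaction between -0.27 and 1.12. The difference in the uroplakin share at 1 week ran from -0.202 to 0.0187 percentage points. Without single libraries the ratio difference ran from -0.23 to 0.43 for Upk1a to Upk2 and -0.28 to 0.87 for Upk1b to Upk3a at 1 week, and from -0.50 to 0.049 for Upk3b to Upk3a at 1 month. Relative to epithelial genes it ran at 1 week from -0.33 to 0.87 for Upk1a, -0.20 to 0.69 for Upk2 and -0.11 to 1.06 for Upk3b, and at 1 month from -0.13 to 0.73 for Upk1b and -0.70 to 0.17 for Upk2. With Cdh1 and Epcam alone as the reference it was -0.070 for Upk1a and -0.20 for Upk2 at 1 week, and -0.41 for Upk1b at 1 month, and the other 4 members at 1 month were lower in KO by more than with the 5 genes. Among the genes most like a member, Arfrp1 moved to an r of 0.87 with Upk3a without KO replicate 3 of 1 week. The cause of these moves was not tested, beyond the fewer libraries or genes that a setting keeps.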
